A study of Rattus norvegicus with 21 samples.

Results

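The tiles described here are 250 bp windows of the rat genome that held only 2 or 3 measured CpGs, lay away from any CpG-dense tile and were nearly unmethylated in unlesioned striatum. They were chosen from tiles on chromosomes 1 to 20 with at least 2 CpGs of 10 or more reads in all 21 libraries. A member had 2 or 3 CpGs listed in any library, a mean methylation level under 10% over the 6 unlesioned libraries, and no tile of 8 or more CpGs starting within 2000 bp. The rule found 2161 of 140054 such tiles (1.54%). Those 2161 were 4.52% of the 47854 tiles that met the CpG number and distance parts of the rule at any level. The CpG number counts CpGs listed in the files, not those of the genome sequence.

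Methylation was measured by bisulfite sequencing, as single-end reads of 50 bases, in dorsal striatum of wild-type Sprague Dawley rats aged 120 days. The groups were 7 lesioned samples given L-DOPA, 8 lesioned samples given saline and 6 unlesioned samples given saline. The lesion was 6-hydroxydopamine, which kills catecholamine neurons, injected into the left medial forebrain bundle, followed by 3 weeks of recovery. Both lesioned groups are described as having lost at least 90% of tyrosine hydroxylase (TH) axons. L-DOPA, the precursor of dopamine, was given at 6 mg/kg once a day over 7 days, and the striatum was collected 3 h after the final dose. The labels do not say which animal each sample came from, nor whether unlesioned samples are from other rats or from the intact side, and the p-values reflect only how these samples vary, which may be technical. As a model, the lesion is on one side, by a toxin, and the tissue is bulk striatum, in which a change in the share of a cell type and a change within cells cannot be told apart.

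In mammalian genomes most CpGs carry a methyl group, and CpG-poor DNA between genes is methylated in most cells. The best-known unmethylated stretches are CpG islands, dense clusters of CpGs that often overlie promoters. CpG-poor DNA of low methylation is known from distal regulatory elements such as enhancers, where bound transcription factors go with a local loss of methylation. The files carry no annotation, and none of the build they use was at hand, so the tiles are given by position on rn5 and none is called an enhancer, a promoter or a gene.

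Libraries held 977801 to 1290297 CpGs on chromosomes 1 to 20 and X, with a median coverage of 37 to 70 reads per cytosine. CpGs of mitochondrial DNA, held to carry little methylation, read 1.12% to 1.49% over the libraries. L-DOPA replicates 3 and 7 and unlesioned replicate 1 had their reads concentrated in CpG-dense tiles: the ratio of median reads in tiles of 15 or more CpGs to those in tiles of 2 or 3 CpGs was 22.1 to 24.1 there, and lower in each of the other 18 libraries. Unlesioned replicate 4 stood apart in another way, with 582 members that had no methylated read, against 168 to 214 in the other unlesioned libraries. The deposited library numbers form 2 runs, called series 1 and series 2 here. No source used here says what they stand for. Series 1 held L-DOPA replicates 1 to 3 and lesioned saline replicates 1 to 6, and no unlesioned library.

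The level of the members in unlesioned striatum chose them and is given as a description. It had a median of 4.26%, quartiles of 2.37% and 7.01%, and a range of 0 to 9.999%. Over the isolated tiles of 2 or 3 CpGs at any level, the unlesioned level was not smoothly spread: 409 lay under 2%, 611 between 2% and 4%, 414 between 4% and 6%, 350 between 6% and 8%, 377 between 8% and 10%, and 388 between 10% and 12%. There was a small peak at 2% to 4% and a trough at 6% to 8%, and no gap at the 10% boundary.

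**Figure D1:**
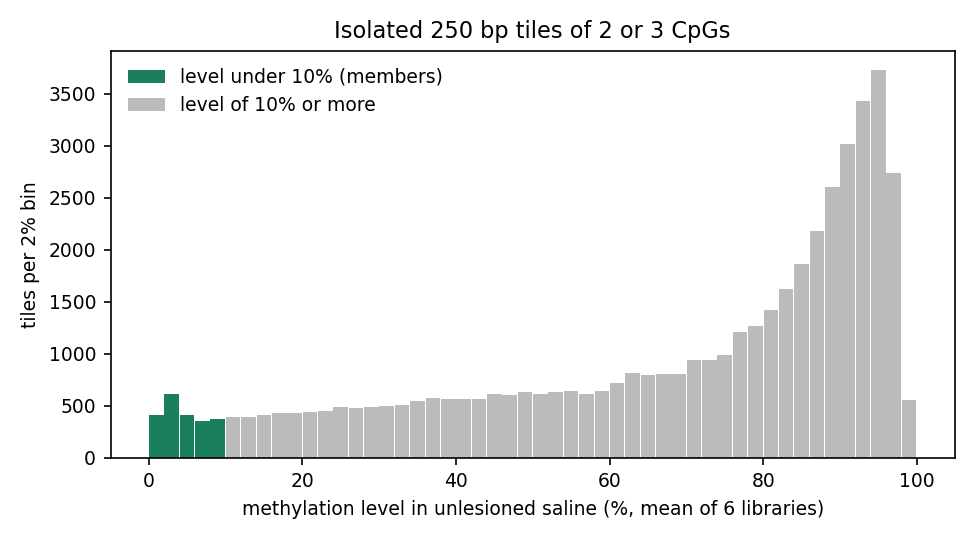
Number of isolated 250 bp tiles of 2 or 3 CpGs per 2% bin of mean methylation level in the 6 unlesioned libraries, with members and all other tiles marked by the 10% boundary. The 611 tiles between 2% and 4% form a small peak beside the large group of methylated tiles, and the boundary falls where the counts are near flat, at 377 tiles just below it and 388 just above it.

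Just inside the boundary, chr6:8663751-8664000 had 9.999% in unlesioned libraries, and averaged 11.3% in L-DOPA libraries and 10.97% in lesioned saline libraries. Chr1:48692001-48692250 had 9.98% and averaged 6.10% in L-DOPA and 10.9% in lesioned saline libraries. Chr19:27678751-27679000 had 9.97% and averaged 7.38% in L-DOPA and 5.68% in lesioned saline libraries. Just outside it, chr15:63158001-63158250 averaged 7.57% in L-DOPA and 8.75% in lesioned saline libraries. The other tiles just outside were chr6:52142251-52142500, with 10.98% in L-DOPA and 12.3% in lesioned saline libraries, and chr13:41471001-41471250, with 8.21% in L-DOPA and 10.4% in lesioned saline libraries. Lesioned means of the 3 tiles inside and the 3 outside overlapped.

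Methylation levels of the lesioned libraries did not enter the rule, which used those libraries only for coverage and CpG number. The mean over the 15 lesioned libraries was under 10% in 2037 members (94.3%), with a median of 4.31% and a range of 0 to 17.2%. Low tiles stayed low as a group: 1161 members (53.7%) were under 10% in each of the 15 lesioned libraries, and 148 (6.85%) reached 20% in any of them. In 16 members some lesioned library reached 30%. The highest single value over the 15 libraries had a median of 9.36% over members.

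Levels in the lesioned groups followed the unlesioned level that ordered the members, with the lowest members somewhat higher in the lesioned libraries. The 133 members under 1% in unlesioned libraries averaged 1.39% in L-DOPA, 1.41% in lesioned saline and 0.568% in unlesioned libraries. The 524 members between 3% and 5% averaged 4.06% in L-DOPA, 4.02% in lesioned saline and 3.92% in unlesioned libraries. The 543 members between 7% and 10% averaged 8.35% in L-DOPA, 8.50% in lesioned saline and 8.55% in unlesioned libraries, and 426 of them (78.5%) had a lesioned mean under 10%. Since the unlesioned level sorted the tiles, no change with the lesion is read from these bins.

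Some members had no methylated read at all. In 6 members the level was 0 in all 21 libraries. Among them were chr14:114113251-114113500 and chr10:93056751-93057000. The tile with the most reads of those at 0 in the unlesioned libraries, chr8:19886251-19886500, had a median of 238 reads and read 0 in 20 of 21 libraries, with 0.322% in L-DOPA replicate 2. All of these values lay below the lowest mitochondrial level of 1.12%. No genome sequence was used, so whether such positions are CpGs in these rats was not checked. Over all members, 196 (9.07%) had a lesioned mean at or below the highest mitochondrial level of 1.49%.

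Reads per tile set how firmly a level can be stated. The median over members was 174 reads per tile and library, counted at each CpG a read covers, and the central 90% of members lay between 53 and 613 reads. In a typical case, 7 of 172 reads were methylated, a level of 4.07% with a 95% Wilson interval of 1.99% to 8.16%. For 0 of 172, the floor, taken as 3 over the reads, is 1.74%, and the Wilson interval ends at 2.18%. Intervals and floors cover counting error only, and treat each count as independent. A read that covers 2 or 3 CpGs is counted at each, and PCR reads without molecular identifiers are not independent molecules. Intervals may therefore be too narrow and floors too low. Members were not poorly covered: their median reads were above those of the other isolated tiles of 2 or 3 CpGs in 17 of 21 libraries.

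At the 5 members with the most reads, counting error was small if counts are taken as independent. Chr14:46854001-46854250 had a median of 6116 reads, against 174 over all members. Its level was lowest at 2.33%, median 4.41% and highest 8.24% in L-DOPA libraries, 2.30%, 3.67% and 5.38% in lesioned saline libraries, and 2.05%, 4.30% and 7.92% in unlesioned libraries. The 3 ranges overlapped and the spread within each group was larger than the differences between them. Chr10:42257501-42257750, with a median of 1880 reads, ran from 1.59% to 2.41% in L-DOPA, from 1.05% to 2.63% in lesioned saline and from 1.13% to 2.97% in unlesioned libraries. The other 3, chr1:85255001-85255250, chr17:45687501-45687750 and chr12:51402501-51402750, had medians of 1434 to 1657 reads. Even at this depth, levels were above zero in every library. Those of chr10:42257501-42257750 went down to 1.05%, below the mitochondrial range of 1.12% to 1.49%. A level above zero is therefore not by itself a sign of methylation. In chr1:85255001-85255250 the CpG at 85255101 averaged 10.97% in L-DOPA, 10.7% in lesioned saline and 10.4% in unlesioned libraries. The CpG at 85255135 averaged 0.62% in L-DOPA, 0.85% in lesioned saline and 0.60% in unlesioned libraries. One CpG of that tile was thus partly methylated and its neighbour nearly not, in all 3 groups.

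Such uneven tiles were the minority. Members held 5327 CpGs, of which 5106 were listed in all 21 libraries. All CpGs of the tile were under 10% in 1661 members, and 500 (23.1%) had a CpG at 10% or more in the unlesioned libraries. Only 29 had a CpG at 20% or more and 3 at 50% or more. The median gap between the highest and the lowest CpG of a tile was 3.22 percentage points. CpGs of a member lay close together, with a median span of 36 bp, under the 50 base read length in 1506 members (69.7%), so a single read could cover all of them. At 332 CpGs with both strands listed in all 21 libraries, the median level was 3.89% on the forward strand and 3.73% on the reverse strand. The 2 strands differed by a median of 1.34 percentage points, and by 5 or more at 17 CpGs.

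Tiles of 2 CpGs averaged slightly higher than tiles of 3 CpGs in every group, a difference that was not tested. The 1156 members with 2 CpGs averaged 5.04% ± 0.489 in L-DOPA, 5.13% ± 0.363 in lesioned saline and 4.94% ± 0.532 in unlesioned libraries (SD over libraries, n = 7, 8 and 6). The 1005 members with 3 CpGs averaged 4.50% ± 0.372 in L-DOPA, 4.53% ± 0.319 in lesioned saline and 4.48% ± 0.427 in unlesioned libraries. The tiles of 3 CpGs had a median of 214 reads, and those of 2 CpGs 134.5.

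What lay around the members was not part of the rule, apart from the absence of CpG-dense tiles. Of the 2161 members, 703 (32.5%) had no other common tile within 2000 bp. Among the 1458 with one, 997 (68.4%) had at least 1 other tile under 10%, and in 699 of these a low neighbour held 4 to 7 CpGs. Another 337 members had a lowest neighbour between 10% and 50%, and 124 (8.50% of those with a neighbour) had only neighbours at 50% or more. Members with a low neighbour were thus more frequent than members with only neighbours at 50% or more. The first count needs 1 low tile and the second needs every measured tile, so they are not like for like.

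The level of neighbouring tiles changed with distance. At 250 bp, 1170 neighbouring tiles had an unlesioned median of 4.77%, 852 of them (72.8%) were under 10%, and 5 were at 80% or more. At 500 bp, the median of 367 neighbours was 6.22%. At 1000 bp, 191 neighbours had a median of 17.4%, and at 1500 bp 165 had a median of 33.8%. At 2000 bp, 122 neighbours had a median of 17.8%. Where an adjacent tile was measured, it was low in most cases, and medians were higher from 1000 bp on. The lesioned medians followed, with 4.53% at 250 bp and 16.8% at 1000 bp. Tiles are cut at fixed positions, so CpGs of adjacent tiles can lie within the length of 1 read. The CpGs at chr10:33988249 and chr10:33988254, for instance, fell in adjacent members. A low tile at 250 bp is therefore not always a separate stretch of DNA.

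In the other classes of isolated tiles, low neighbours were less frequent the higher the class. At 250 bp, neighbours of members were under 10% in 72.8% of cases, against 21.9% for tiles at 10% to 20% (757 neighbours), 2.20% for tiles at 20% to 80% (5868) and 0.0657% for tiles at 80% or more (6092). Low tiles of 2 or 3 CpGs that did lie near a CpG-dense tile had a low neighbour at 250 bp in 94.6% of 4295 cases. These shares were not tested, since the unlesioned level both chose the classes and gave the neighbours' levels.

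**Figure D2:**
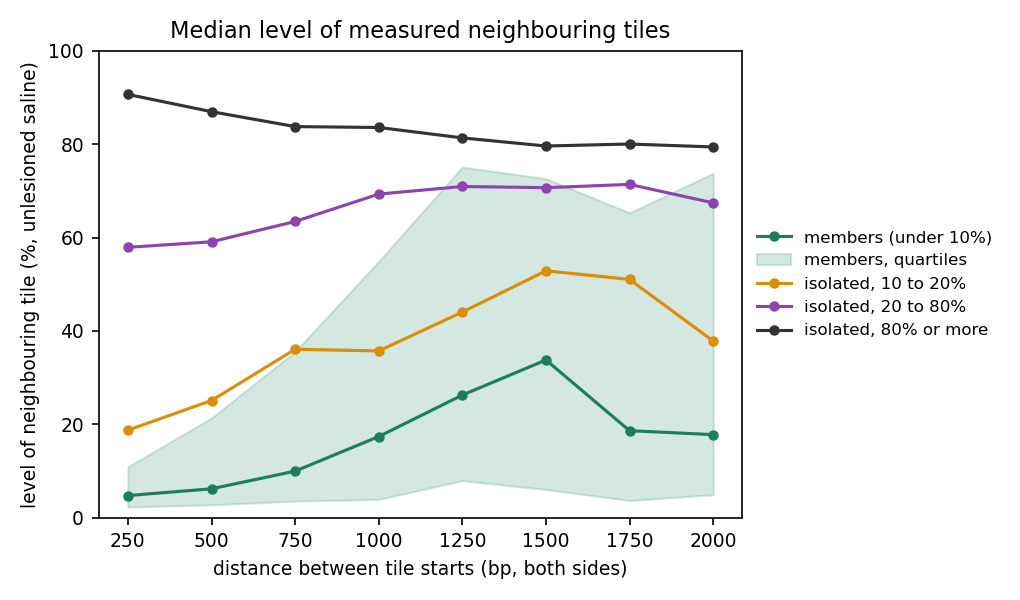
Median methylation level in unlesioned libraries of measured neighbouring tiles, by distance between tile starts in bp on either side, for members and for the other groups of tiles of 2 or 3 CpGs. Neighbours of members have a median of 4.77% at 250 bp and 17.4% at 1000 bp, below those of the tiles at 10% to 20%, whose neighbours at 250 bp have a median of 18.8%.

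The nearest CpG-dense tile was at a median of 21000 bp from members, against 26875, 34000 and 42250 bp from isolated tiles at 10% to 20%, 20% to 80% and 80% or more. Within 5000 bp lay a dense tile for 15.7% of members, 11.9%, 8.93% and 6.56% of those classes. In 41 members a tile of 8 or more CpGs that was not measured in all 21 libraries lay within 2000 bp, so for these the word isolated holds only for common tiles. For every member, a dense stretch whose CpGs were not listed would go unseen, since no genome sequence was used.

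In 80 members both adjacent tiles were measured, and 2 of these had both at 50% or more. Those 2 tiles and 4 others with an adjacent tile at 80% or more were chosen after their values were seen, to show how sharp the change in level can be. In chr3:13096251-13096500 (tile A in the plot of tiles beside methylated neighbours) the level averaged 2.06% ± 2.64 in L-DOPA, 2.60% ± 2.42 in lesioned saline and 2.73% ± 2.54 in unlesioned libraries (SD, n = 7, 8 and 6). The tile to its left averaged 74.9% in L-DOPA, 74.3% in lesioned saline and 72.4% in unlesioned libraries. The tile to its right averaged 71.8% in L-DOPA, 71.4% in lesioned saline and 67.6% in unlesioned libraries. The low level therefore lay between methylated DNA on both sides, in all 3 groups. The CpG of the left tile nearest to it, at 13096241, averaged 57.4% in L-DOPA, 59.0% in lesioned saline and 52.9% in unlesioned libraries, and the CpG at 13096448 inside the tile averaged 2.01% in L-DOPA, 0.446% in lesioned saline and 1.62% in unlesioned libraries. On the right, the CpG at 13096670 averaged 86.1% in L-DOPA, 78.5% in lesioned saline and 88.9% in unlesioned libraries.

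Chr5:176944001-176944250 (tile B) was a second case with both sides methylated. It averaged 1.82% ± 1.88 in L-DOPA, 1.48% ± 1.27 in lesioned saline and 2.25% ± 1.49 in unlesioned libraries. The tile 250 bp to its left averaged 69.0% in L-DOPA, 69.7% in lesioned saline and 70.2% in unlesioned libraries, and the tile 250 bp to its right 88.9% in L-DOPA, 87.6% in lesioned saline and 89.6% in unlesioned libraries. The 4 CpGs of the left tile were lower the closer they lay to the member. The farthest, at 176943819, averaged 93.4% in L-DOPA, 90.5% in lesioned saline and 93.0% in unlesioned libraries. The nearest, at 176943895, averaged 27.6% in L-DOPA, 26.0% in lesioned saline and 31.6% in unlesioned libraries. The other 4 tiles (C to F) had 1 adjacent tile at 80% or more and group means of 1.92% to 10.2%. Tile C had a low tile on its other side, and D, E and F had no measured tile there.

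**Figure D3:**
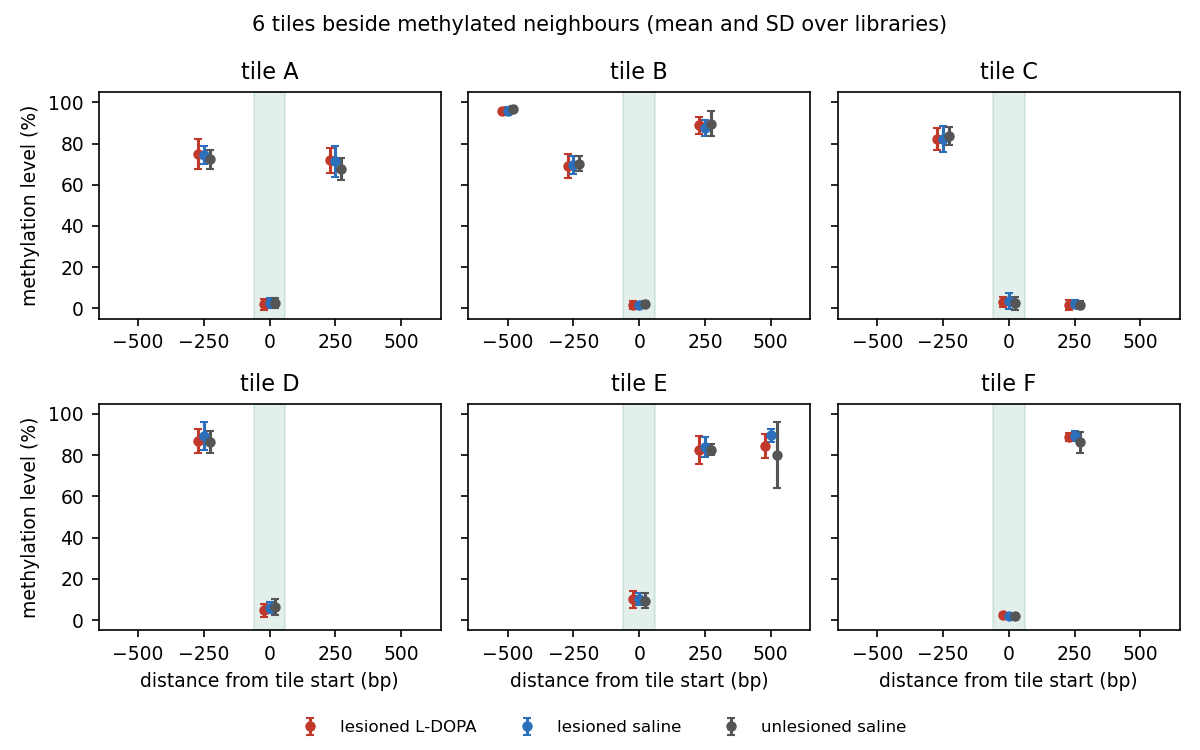
Mean methylation level with SD over libraries for 6 members (tiles A to F, shaded) and their measured neighbours, by distance from the member's start in bp, in L-DOPA (n = 7), lesioned saline (n = 8) and unlesioned saline (n = 6) libraries. Tiles A and B lie between tiles at 67.6% to 89.6%, and the error bars of the 3 groups overlap in every tile shown.

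Most members had no other member starting within 1000 bp. Only members were joined here. Low tiles of 4 to 7 CpGs, which 699 members had within 2000 bp, were not counted. With neighbouring members joined where their starts lay at most 1000 bp apart, 1734 members (80.2%) were single, 380 fell in 190 pairs, 42 in 14 runs of 3, and 5 in 1 run. The run of 5 was chr10:33988001-33990000, which averaged 2.49% ± 0.668 in L-DOPA, 3.40% ± 0.967 in lesioned saline and 3.44% ± 0.600 in unlesioned libraries. Of the 14 runs of 3, the first 2 in genome order were at chr3:119797501-119798500, which averaged 5.30% ± 1.77 in L-DOPA, 3.73% ± 1.16 in lesioned saline and 3.91% ± 0.692 in unlesioned libraries, and at chr4:56241251-56242000. That run averaged 2.45% ± 1.44 in L-DOPA, 2.58% ± 2.15 in lesioned saline and 2.58% ± 2.81 in unlesioned libraries. The differences between groups over runs were not tested. Members were spread over all 20 autosomes, from 3.21% of the isolated tiles on chromosome 16 (52) to 5.89% on chromosome 10 (199).

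The question of the treatment comparison is whether L-DOPA after the lesion changed methylation at these tiles. It was the only contrast tested, since the unlesioned level chose the members. Over all members, the mean level per library averaged 4.79% ± 0.430 in L-DOPA libraries, with a range of 4.08% to 5.23%, and 4.85% ± 0.336 in lesioned saline libraries, with a range of 4.37% to 5.32% (SD, n = 7 and 8). The ranges overlapped, and the difference of -0.0614 percentage points was smaller than its SE of 0.201. Without the 3 libraries with concentrated reads it was 0.175 points, and within library series 1 and 2 it was -0.0725 and -0.151 points. It was also above 0 without L-DOPA replicate 3 (0.0170), L-DOPA replicate 7 (0.0571) or lesioned saline replicate 4 (0.00557), so no direction is read from it. For the other isolated tiles the difference was -1.20 points (SE 1.39), from 69.7% ± 3.44 in L-DOPA and 70.9% ± 1.39 in lesioned saline libraries. As a description, unlesioned libraries averaged 4.72% ± 0.482 over members, or 4.79% ± 0.505 without replicate 4. The 3 libraries with concentrated reads had the lowest averages of all, 4.00% to 4.32% against 4.37% to 5.32% in the other 18. They were also lowest over the other isolated tiles, at 64.5% to 65.5% against 68.0% to 73.7%, so this was not particular to members.

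**Figure D4:**
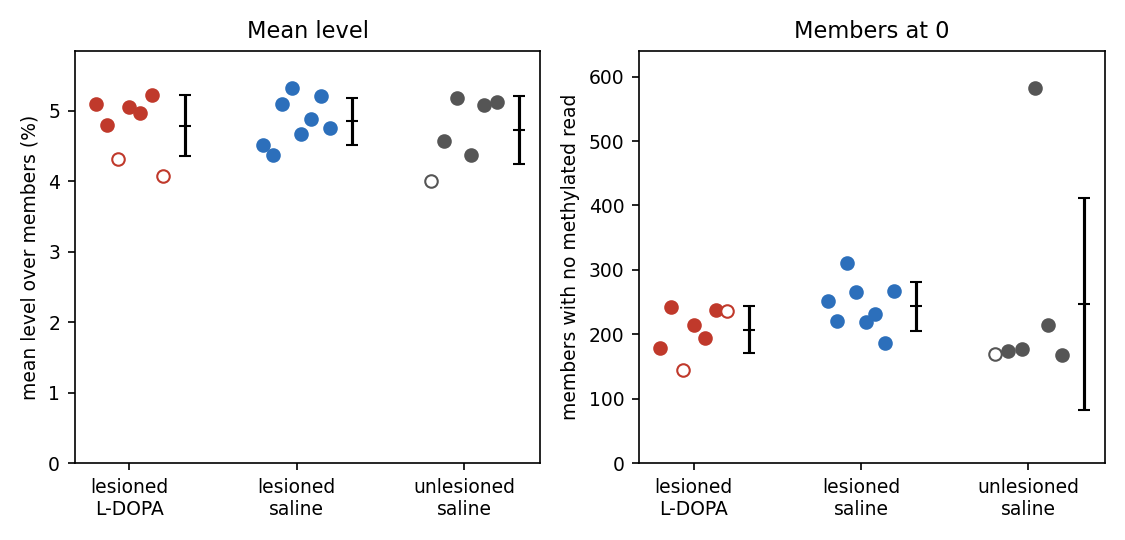
Mean level over the 2161 members (left) and number of members with no methylated read (right) in each library, by group, with mean and SD; open points are the 3 libraries with reads concentrated in CpG-dense tiles. Means lie between 4.00% and 5.32%, the open points are the lowest, and unlesioned replicate 4 has 582 members at 0.

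Per tile, no member and no other tile tested passed the threshold. Under a quasi-binomial model of the methylated and unmethylated read counts, fitted to 184615 tiles, 0 members and 0 tiles were called at an adjusted p under 0.05 (0% of all tiles). At an unadjusted p under 0.05, 79 members (3.66%) were called, against 3.9% of all tiles (7205), so the members' share was near the background in this model. Of these 79, 33 were higher under L-DOPA, where 1.55% of all tiles were, and 46 were lower, where 2.35% were. limma on the same tiles also called 0 members at an adjusted p under 0.05, but at an unadjusted p under 0.05 it called 116 members (5.37%, 37 higher and 78 lower under L-DOPA), against 4.05% of all tiles (7474). The members' share was thus below that of all tiles in the quasi-binomial model and above it in limma. The median reads over members averaged 202 ± 40.8 in L-DOPA and 149.6 ± 22.7 in lesioned saline libraries (SD, n = 7 and 8). In limma, 0.5 was added to each count, so a tile without methylated reads scores lower in a deeper library. The part of depth in limma's calls was not tested.

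The direction of the unadjusted calls depended on which libraries were included. Without the 3 libraries with concentrated reads, 79 members passed at an unadjusted p under 0.05, now 50 higher and 29 lower, and over all tiles 4899 were higher and 2549 lower. Without L-DOPA replicate 7, 41 members were higher and 28 lower. Without lesioned saline replicate 7, whose reads were not concentrated, 41 were higher and 39 lower. Without L-DOPA replicate 3, whose reads were, 30 were higher and 44 lower. The part of these libraries in the direction was not tested. In percentage points the differences were small. The median over members was -0.0142 points, with 95% of members between -3.28 and 2.95. The largest differences among members were -6.78 and 7.98 points. In 18 members (0.833%) the difference was 5 points or more, against 11.5% of all tiles. The median SE of a difference was 1.18 points in members, against 2.16 over all tiles. The rule kept only tiles of low level, which have little room to fall and less room to vary. Both comparisons with all tiles therefore follow in part from the rule, and no weaker response of members is read from them.

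The 5 members with the smallest p in each direction are given as values that did not pass, all with an adjusted p of 1 in the quasi-binomial model. The smallest p among those higher under L-DOPA was at chr5:162767001-162767250 (tile G), which had 7.92%, 10.1% and 11.2% as lowest, median and highest in L-DOPA libraries, and 1.49%, 4.88% and 7.84% in lesioned saline libraries. Its groups did not overlap, with every L-DOPA library above every lesioned saline one, and the difference was 5.54 points (SE 0.948, unadjusted p = 0.000569). Unlesioned libraries, which chose the members, had 8.05% ± 1.74 there, closer to the L-DOPA group. The difference was 6.84 points within series 1 and 4.14 within series 2.

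Chr10:55428751-55429000 (tile H) had methylated reads in 6 of 7 L-DOPA libraries, at 0, 2.10% and 4.48% as lowest, median and highest, and none in any of the 8 lesioned saline libraries, which had 32 to 89 reads each. The group difference was 2.21 points (SE 0.611, unadjusted p = 0.00142). Chr15:32469001-32469250 (tile I) had 2.52%, 4.78% and 10.2% in L-DOPA against 0.781%, 2.42% and 5.98% in lesioned saline libraries, and the ranges overlapped. Of chr8:116070001-116070250 and chr1:210527751-210528000, the first averaged 1.83% in L-DOPA and 0.446% in lesioned saline libraries, and the second 5.72% in L-DOPA and 3.31% in lesioned saline libraries. In the second the difference was 0.300 points within series 1 and 4.60 within series 2.

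In the other direction, chr11:76763501-76763750 (tile J) had no methylated read in any of the 7 L-DOPA libraries, over 39 to 138 reads each, and 0.893%, 2.71% and 7.69% in lesioned saline libraries. The groups did not overlap, and the difference was -3.25 points (SE 0.790, unadjusted p = 0.000129), the smallest p among members. Lesioned saline replicates 4, 5 and 8 had 1 methylated count each, of 112, 54 and 66, so the lack of overlap rests on single counts. Chr7:67172751-67173000 (tile K) had 0, 1.504% and 2.61% in L-DOPA and 0, 3.94% and 9.52% in lesioned saline libraries, and the groups overlapped. Chr11:67630501-67630750 (tile L) had 0.913%, 1.68% and 2.90% in L-DOPA and 1.39%, 7.47% and 14.4% in lesioned saline libraries. The L-DOPA values of tile L were close together, and both saline groups were spread widely, with 0, 9.92% and 23.5% in unlesioned libraries. The others were chr20:10142751-10143000, which averaged 2.26% in L-DOPA and 6.16% in lesioned saline libraries, and chr14:87493001-87493250, which averaged 4.32% in L-DOPA and 6.14% in lesioned saline libraries.

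**Figure D5:**
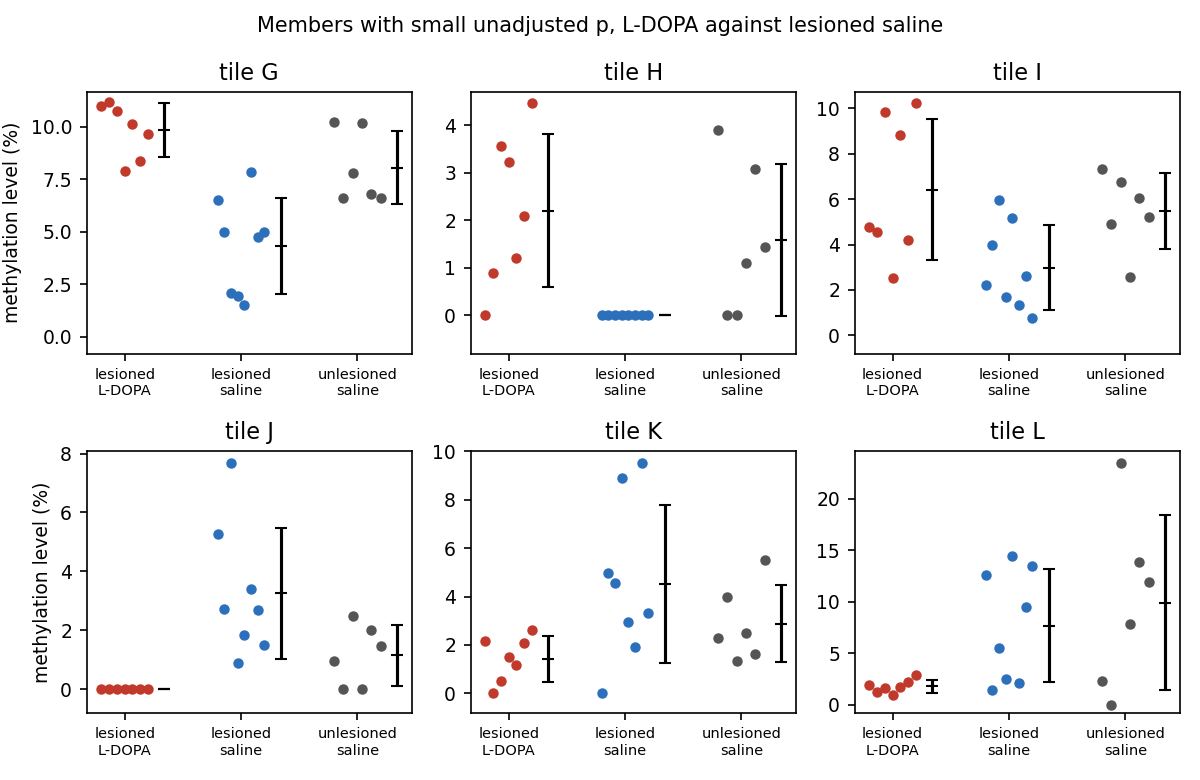
Methylation level in every library with mean and SD for the 3 members with the smallest unadjusted p higher (tiles G to I) and lower (J to L) under L-DOPA; scales differ between panels. Tile G has all 7 L-DOPA libraries between 7.92% and 11.2%, above the lesioned saline libraries, and tile J has 0 in all 7 L-DOPA libraries.

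Counted over tiles measured in all 21 libraries, L-DOPA and lesioned saline values did not overlap at all in 3 members (0.139%), against 0.0183% of 142110 tiles. Of these 2 were higher under L-DOPA, where 0.00844% of tiles were, and 1 was lower, where 0.00985% were. Of the 3, tiles G and J are given above, J with 1 methylated count in some lesioned saline libraries. The other was chr2:218070001-218070250, named after its values were seen. That tile had 2.14%, 2.78% and 3.25% as lowest, median and highest in L-DOPA libraries, and 0.881%, 1.56% and 2.06% in lesioned saline libraries. Unlesioned libraries had 2.05%, 2.34% and 4.38%. The difference was 1.28 points (SE 0.191, unadjusted p = 0.00470), from 227 to 740 reads per lesioned library. These 3 tiles were picked from 2161 for their p or their lack of overlap, and the share among members was not tested.

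The members that varied most within lesioned tissue were tiles of few reads. Chr4:145190001-145190250 had the widest range over the 15 lesioned libraries, 45.5 points, and its highest value was in lesioned saline replicate 3, where 22 reads were counted. The other 14 lesioned libraries ran from 0 to 17.2%. Chr5:145764751-145765000 had 5.56%, 14.0% and 45.1% as lowest, median and highest in L-DOPA and 1.75%, 10.2% and 20.0% in lesioned saline libraries. Chr13:118310001-118310250, chr3:137184001-137184250 and chr9:82953251-82953500 had ranges of 37.5, 33.3 and 33.1 points. The 5 tiles had medians of 44 to 78 reads, under the members' median of 174.

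The SD over the 15 lesioned libraries had a median of 2.28 points in members, 5.01 in isolated tiles at 10% to 20%, 8.34 at 20% to 80% and 3.78 at 80% or more. Measured against binomial counting, the median dispersion over the lesioned libraries was 2.32 in members, 3.38, 4.15 and 2.41 in those classes, and 2.27 in low tiles near CpG-dense ones. Of the isolated classes, members and tiles at 80% or more had the smaller spread and the smaller excess over binomial counting. These medians were not tested, and the classes were cut by level, which itself limits how large the SD can be.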

How the data were processed

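Per the submitters' processing notes, the tools were Bismark 0.13.0, methylKit 0.9.2, Trim Galore 0.3.7, FastQC 0.10.1 and SAMtools 0.1.19, and the build was rn5. The authors deposited, for each cytosine, a read count (coverage), the percent read as C and the percent read as T. Percent and coverage gave whole methylated counts for all cytosines. Every listed cytosine had 10 or more reads, and 36.4% to 58.8% of cytosines had over 50, so PCR duplicates may still be counted. Total coverage was 58553999 to 163324940 per library.

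A tile's methylated and unmethylated counts were summed over its CpGs (2 or more per library). L-DOPA was compared with lesioned saline by a quasi-binomial logistic model on all 21 libraries in 3 groups, with the dispersion moderated as in limma 3.58.1's squeezeVar, an F-test on the deviance and Benjamini-Hochberg adjustment over 184615 tiles present in at least 5 libraries of each group. No filter on pooled methylation was applied, so every member was tested. limma on log ratios with an added count of 0.5, other filters, levels, distances and left-out libraries were alternatives. The code was tested on simulated data. Python 3.11.15, NumPy 2.4.6, SciPy 1.17.1, pandas 2.3.3, matplotlib 3.10.9 and R 4.3.3 were used.

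Members, lists and tests were chosen with earlier results of these data known. Named tiles were the 5 of smallest p per direction, the 3 just inside and outside the 10% boundary, the 5 with most reads, the 3 runs of most members (ties in genome order), the 5 of widest range over lesioned libraries and the 3 of lowest unlesioned level. Without an rn5 genome, no sequence or gene was used here.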

Additional observations from a re-analysis of the deposited data

Results flagged for a closer look

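Of 143 sets of 6 to 8 values tested for a value far from the others (Dixon's rule), 14 stood out. Chance gives about 1 in 20 for sets not chosen by their values, a share that does not apply here, since several tiles were named for extreme values: chr4:145190001-145190250 and chr9:82953251-82953500 for their wide range, and chr8:19886251-19886500 for a level of 0. Unlesioned replicate 4 had 582 members with no methylated read, and the next library of its group had 214. Lesioned saline replicate 3 had a median of 98 reads per member, and the next had 147.

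Within tiles, L-DOPA replicate 4 read 0.787% at chr10:33988751-33989000 (next 3.13%). L-DOPA replicate 3 read 7.63% at chr3:13096251-13096500 (next 2.40%), and L-DOPA replicate 2 read 0.322% at chr8:19886251-19886500 (others 0). Lesioned saline replicate 1 read 2.63% at chr10:42257501-42257750 (next 1.79%). Lesioned saline replicate 3 read 45.5% at chr4:145190001-145190250 (next 17.2%) and 35.0% at chr9:82953251-82953500 (next 20.0%). Lesioned saline replicate 4 read 7.95% at chr4:56241251-56241500 (next 1.82%). Unlesioned replicate 4 read 0.476% at chr10:33988251-33988500 (next 3.29%), 4.38% at chr2:218070001-218070250 (next 2.68%), 7.01% at chr4:56241501-56241750 (next 3.14%) and 17.0% at chr4:56241751-56242000 (next 4.55%). Unlesioned replicate 5 read 5.17% at chr5:176944001-176944250 (next 2.06%). Unlesioned replicate 4 gave 5 of the 14, and lesioned saline replicate 3 gave 3. The causes were not tested.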

How the results depend on the processing

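Members called at an adjusted p under 0.05 numbered 0 in all settings run except a logistic model without overdispersion, which treats reads as independent and called 214 members and 30652 of all tiles, with 21.8% of members (471) and 29.2% of all tiles at an unadjusted p under 0.05. Within library series 1 alone, 1 tile passed, not a member. The boundary set the size of the group, with 1247 members under 5% and 4225 under 20%, against 2161. Leaving out each of the 15 lesioned libraries in turn gave 0 adjusted calls, 69 to 95 members at an unadjusted p under 0.05 (3.19% to 4.40% of members, against 3.53% to 4.97% of all tiles) and a mean difference of -0.135 to 0.0571 points. Leaving out each of the 6 unlesioned libraries gave 2062 to 2240 members. The sign of the mean difference changed when single lesioned libraries were left out. Without unlesioned replicate 4 there were 2154 members, 2073 of them shared with the 2161. Of the unlesioned libraries, it alone was left out of the test singly, a setting chosen after its values were seen, which gave 0 adjusted calls and 84 members at an unadjusted p under 0.05 (3.89%, against 4.29% of all tiles).

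The labels do not say whether replicate numbers pair the samples, and deviations at tiles with so few methylated reads cannot settle it. Same-numbered deviations of L-DOPA and lesioned saline libraries correlated at -0.179 to 0.210 over 7 pairs, and 3 pairs were over 0.1. Against unlesioned libraries, correlations ran from -0.458 to 0.187 for L-DOPA and from -0.176 to 0.300 for lesioned saline libraries. With the replicate block, 0 members passed at an adjusted p and 78 at an unadjusted p under 0.05 (3.61%, against 3.64% of all tiles), and the mean of same-numbered differences was -0.0749 points. Of 7 L-DOPA libraries, 1 correlated best with the lesioned saline library of its own number.

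Depth limits single tiles more than the mean. At 172 reads, taken as independent, a level of 0 cannot be told from the floor of 1.74%, which is 3 over the reads.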
